A study of Mus musculus with 2 samples.

Results

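The 10 genes described here, Mfn1, Mfn2, Opa1, Dnm1l, Fis1, Mff, Mief1, Mief2, Oma1 and Yme1l1, set the balance between mitochondrial fusion and fission. They were chosen by symbol from 55536 annotated genes. Their RNA was measured in the heart of 2 female B6CASTF1/J mice at postnatal day 10, F1 offspring, per the strain name, of C57BL/6J and the wild-derived CAST/EiJ. Each heart gave 1 total RNA library (replicates 1 and 2) from 300 ng of RNA with ERCC spike-ins, which are synthetic RNAs of known amount. Both animals belong to this 1 group, with no treatment named, so the design holds no comparison of conditions. The labels number the hearts as separate biological replicates with biosample records of their own, but under 1 donor record, and name no litter. Whether that donor record stands for the strain or for 1 animal is not stated, so n = 2 counts hearts as the labels number them. Replicate 1 held 40403041 expected counts and replicate 2 held 39849597.

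Mitochondria join and divide continually. Mfn1 and Mfn2, GTPases of the outer membrane, draw mitochondria together and fuse their outer membranes, and Opa1 fuses the inner membranes and shapes the cristae. The dynamin-like GTPase Dnm1l (Drp1) constricts and divides mitochondria after Mff, Mief1, Mief2 and, in some settings, Fis1 bring it to the outer membrane. The inner-membrane proteases Oma1, which is activated by stress, and Yme1l1 cut Opa1 and so set its long and short forms. In cardiomyocytes, which are filled with mitochondria, loss of fusion or of fission genes is known to impair the maturing heart. On mm10, the fusion genes lie at chr3:32529465-32579239 (Mfn1, plus strand), chr4:147873599-147904704 (Mfn2, minus strand) and chr16:29579334-29654884 (Opa1, plus strand). The fission genes lie at chr16:16312230-16358959 (Dnm1l, minus strand), chr5:136953275-136966234 (Fis1), chr1:82724890-82752394 (Mff), chr15:80234018-80253371 (Mief1) and chr11:60728398-60732951 (Mief2), the last 4 on the plus strand. The protease genes lie at chr4:103313812-103371868 (Oma1) and chr2:23156369-23199260 (Yme1l1), both on the plus strand.

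Alternative exons are among the differences between the coding forms of Opa1, Dnm1l and Mff. Shown first are 8 of the 9 skipped coding exons of the 10 genes that have a length that is a multiple of 3. Each is given 5′ to 3′ on the strand of the gene, with the alternative exon in capitals between 12 bases of the neighbouring exons of 1 annotated transcript in lower case.
Opa1 54 nt exon: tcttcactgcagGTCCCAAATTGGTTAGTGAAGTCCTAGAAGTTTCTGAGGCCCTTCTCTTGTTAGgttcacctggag
Opa1 111 nt exon: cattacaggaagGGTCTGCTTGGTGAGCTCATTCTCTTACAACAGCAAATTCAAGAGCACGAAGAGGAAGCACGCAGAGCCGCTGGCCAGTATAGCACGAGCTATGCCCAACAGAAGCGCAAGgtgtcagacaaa
Dnm1l 39 nt exon: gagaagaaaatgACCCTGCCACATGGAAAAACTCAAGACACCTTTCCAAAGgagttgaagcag
Dnm1l 78 nt exon: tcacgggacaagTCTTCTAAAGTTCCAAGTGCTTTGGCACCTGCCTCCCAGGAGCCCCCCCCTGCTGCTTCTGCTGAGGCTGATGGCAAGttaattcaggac
Dnm1l 33 nt exon: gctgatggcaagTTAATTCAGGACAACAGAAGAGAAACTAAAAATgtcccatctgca
Mff 75 nt exon: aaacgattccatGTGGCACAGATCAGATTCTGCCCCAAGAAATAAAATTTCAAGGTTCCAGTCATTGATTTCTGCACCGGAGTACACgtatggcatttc
Mff 159 nt exon: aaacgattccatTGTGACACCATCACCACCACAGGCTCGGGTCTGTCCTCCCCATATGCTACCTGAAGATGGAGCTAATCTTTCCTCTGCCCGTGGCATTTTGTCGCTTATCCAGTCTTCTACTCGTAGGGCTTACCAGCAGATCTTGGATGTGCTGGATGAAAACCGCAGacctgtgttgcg
Mff 60 nt exon: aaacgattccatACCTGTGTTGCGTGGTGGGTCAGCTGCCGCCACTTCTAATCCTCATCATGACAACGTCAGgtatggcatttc
The sequences were read from the GENCODE M21 transcripts (mm10). The Opa1 exons lie at chr16:29588823-29588876 and chr16:29597586-29597696 on the plus strand. The Dnm1l exons lie at chr16:16342697-16342735, chr16:16318764-16318841 and chr16:16318445-16318477 on the minus strand. The Mff exons lie at chr1:82737013-82737087, chr1:82741818-82741976 and chr1:82747083-82747142 on the plus strand. All 8 lie in coding sequence, have a length that is a multiple of 3 and hold no stop codon in frame, so that skipping them keeps the reading frame. They encode 18 and 37 residues in Opa1, 13, 26 and 11 in Dnm1l, and 25, 53 and 20 in Mff. The upstream flank printed for the 3 Mff exons is the same 12 bases, since in the transcripts read each of them follows the same exon.

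All 10 genes were expressed, at levels that spanned 37.3-fold in replicate 1 and 27.6-fold in replicate 2. Levels are given as TPM, a relative transcript abundance corrected for length. A gene was counted as detected at 1 TPM or more in both libraries. All 10 genes passed, against 23.1% of annotated genes and 53.3% of protein-coding genes. By the RSEM estimate, which is the measure of level used below unless kallisto is named, the median of the 10 genes was 48.3 ± 0.658 TPM (SD, n = 2). The median detected protein-coding gene stood at 10.9 TPM in both libraries. Because hearts were measured whole, fewer cells of a type and less RNA per cell cannot be told apart.

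Mfn2 was the most abundant of the 10 genes. Its level was 246 TPM in replicate 1 and 243 in replicate 2, above 97.7% and 97.6% of detected protein-coding genes. It alone held 35.1% and 33.6% of the summed TPM of the 10 genes. Mfn1 followed at 146 and 157 TPM, and both replicates of Mfn1 lay below both of Mfn2. Over transcripts with a complete annotated coding sequence alone, Mfn1 stood at 73.1 ± 3.17 TPM by RSEM (SD, n = 2), beside Fis1 at 74.0 ± 0.742 TPM, whose replicates lay between those of Mfn1. By kallisto it stood at 101.8 ± 3.21 TPM on that basis, in the second place. Opa1, the fusion GTPase of the inner membrane, was lower, at 53.5 and 54.3 TPM. Summed over the 3 fusion genes, the level was 445 and 455 TPM in replicates 1 and 2.

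Among the fission genes the receptors were more abundant in sum than the GTPase they recruit. Mff, a tail-anchored receptor of Dnm1l, stood at 82.1 and 84.1 TPM. Fis1, a tail-anchored protein also tied to mitochondrial quality control, stood at 74.3 and 75.4 TPM. Dnm1l itself stood at 42.3 and 43.3 TPM, below both. Over complete coding transcripts alone, RSEM gave Mff 43.7 and 43.25 TPM and Dnm1l 39.95 and 42.3 TPM, so the 2 were close. Kallisto gave Mff 61.0 and 59.7 TPM and Dnm1l 47.5 and 50.2 TPM on that basis. The paired adaptors Mief1 and Mief2, which bind Dnm1l and can hold it inactive, were the lowest, at 13.4 and 15.1 TPM for Mief1 and 9.76 and 11.0 TPM for Mief2. The summed TPM of the 4 receptors and adaptors was 4.25-fold that of Dnm1l in replicate 1 and 4.29-fold in replicate 2. The 5 fission genes summed to 222 and 229 TPM.

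The proteases that process Opa1 were unequal. Yme1l1, the ATP-dependent protease facing the intermembrane space, stood at 27.9 and 30.2 TPM. Oma1 was the lowest of the 10 genes, at 6.60 and 8.79 TPM in replicates 1 and 2, from 363 and 430 counts. It ranked above 34.0% and 43.0% of detected protein-coding genes, the lowest ranks of the 10.

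**Figure D1:**
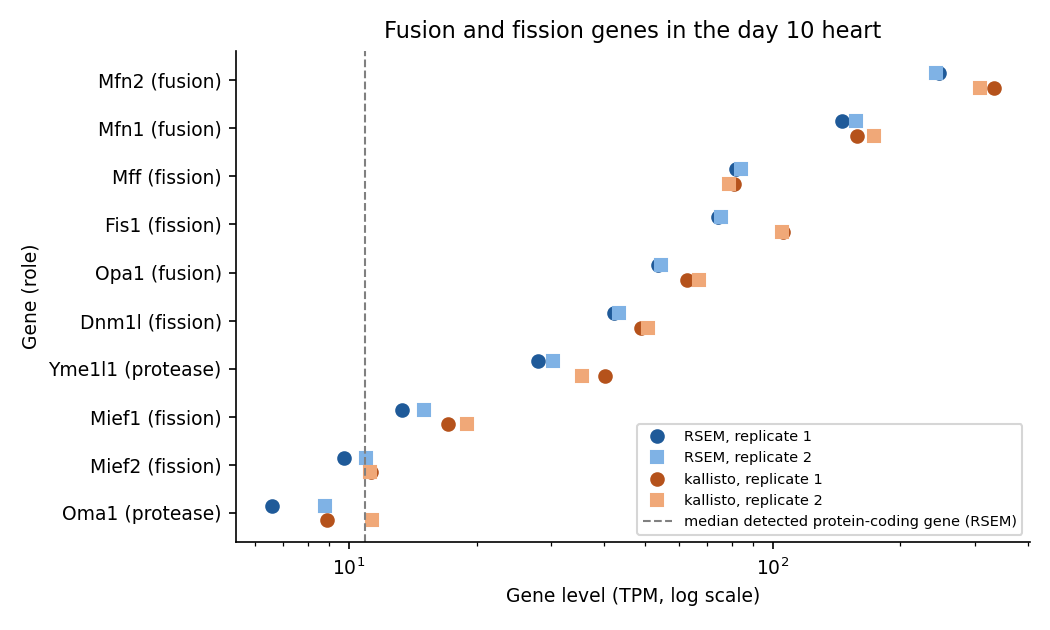
Level of each gene in each library (x axis, TPM on a log scale) by RSEM (blue) and kallisto (orange), circles for replicate 1 and squares for replicate 2, ordered by the mean RSEM level. Mfn2 and Mfn1 lie at the top by both methods, Oma1 and Mief2 at the bottom near the dashed line that marks the median detected protein-coding gene, and Fis1 shows the widest gap between the means of the methods.

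The order from Mfn2 through Mfn1, Mff, Fis1, Opa1, Dnm1l, Yme1l1, Mief1 and Mief2 to Oma1 was the same in both libraries. An exact permutation test over 2 libraries cannot reach a p under 0.5, so neighbours were read as apart when both libraries gave the same sign and the mean log2 ratio exceeded 3 SD. By this reading 8 of 9 neighbouring genes were apart. Mief2 and Oma1 were not, with a log2 ratio of 0.44 ± 0.17 (SD, n = 2). The neighbours were taken from the mean RSEM order of these same libraries. By kallisto 7 of 9 were apart, but these include Mff and Fis1 in the opposite order, with a log2 ratio of -0.39 ± 0.023. Dnm1l and Yme1l1 joined the exceptions with 0.40 ± 0.17. Mief2 to Oma1 by kallisto was 0.34 in replicate 1 and -0.018 in replicate 2.

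5 functional pairs were compared within each library. Mfn2 exceeded Mfn1 1.69-fold in replicate 1 and 1.54-fold in replicate 2. The excess was larger by kallisto, at 2.10-fold and 1.77-fold. Counting only transcripts with a complete annotated coding sequence, it was 2.58-fold and 2.51-fold by kallisto and 3.15-fold and 3.02-fold by RSEM. Mfn2 was thus above Mfn1 on each of these scales, while the size of the excess moved with the transcripts counted. Mief1 exceeded Mief2 1.37-fold in both replicates. Yme1l1 exceeded Oma1 3.78-fold on average, with a log2 ratio of Oma1 to Yme1l1 of -2.06 in replicate 1 and -1.77 in replicate 2. Over complete coding transcripts alone, the mean excess was smaller, 3.06-fold by kallisto and 3.02-fold by RSEM.

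The other two pairs changed order with the measure. Mff was 1.11-fold above Fis1 in replicate 1 and 1.12-fold in replicate 2 by RSEM, but the log2 ratio of Mff to Fis1 was -0.38 and -0.41 by kallisto. The Fis1 counts of the 2 methods differed little, at 1604 and 1601 by RSEM and 1550 and 1524 by kallisto. The leading Fis1 transcript is 786 nt long. The methods subtract 99 nt (RSEM) and about the fragment length of 333 nt in replicate 1 (kallisto) from the length before dividing. Opa1 exceeded Dnm1l 1.26-fold in replicate 1 and 1.25-fold in replicate 2. The order turned when only complete coding transcripts were counted, to 1.30-fold and 1.31-fold more Dnm1l than Opa1 by RSEM. That restriction removes Opa1-207, a 3153 nt transcript whose end is incomplete in the annotation and which held 27.5% and 29.7% of the Opa1 TPM.

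Transcripts of the protein-coding class held 91.3 ± 0.708% (SD, n = 2) of the kallisto TPM of the 10 genes, and 89.7 ± 0.845% by RSEM. Of the 74 annotated transcripts of these genes, 29 have a complete coding sequence and 11 a coding sequence with an incomplete end. The rest are 17 transcripts with a retained intron, 2 marked for nonsense-mediated decay, which have an annotated coding sequence but were counted apart, and 15 processed transcripts, which are spliced RNAs without an open reading frame. As a share of estimated counts the protein-coding class held 97.8 ± 0.0725%. The other classes therefore weigh more in TPM than in counts.

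The gap between TPM and counts was visible in single genes. Mfn1-210, a retained-intron fragment of 246 nt, received 114 and 132 counts by RSEM, and these made up 17.0% and 18.6% of the Mfn1 TPM. Kallisto gave that fragment 0 counts in both libraries. Mief1-207, a processed transcript of 419 nt, received 0.99 counts in replicate 1 and 26.0 in replicate 2 by RSEM, which was 0.747% and 17.6% of the Mief1 TPM. The Mief1 TPM was higher in replicate 2 while the Mief1 count, 1788 and 1706, was lower. Oma1-202, a processed transcript of 421 nt, took 3.94% and 14.9% of the Oma1 TPM from 2.65 and 13.0 counts. The TPM of Mief1 and Oma1 in a single library thus rests in part on few reads of short transcripts.

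**Figure D2:**
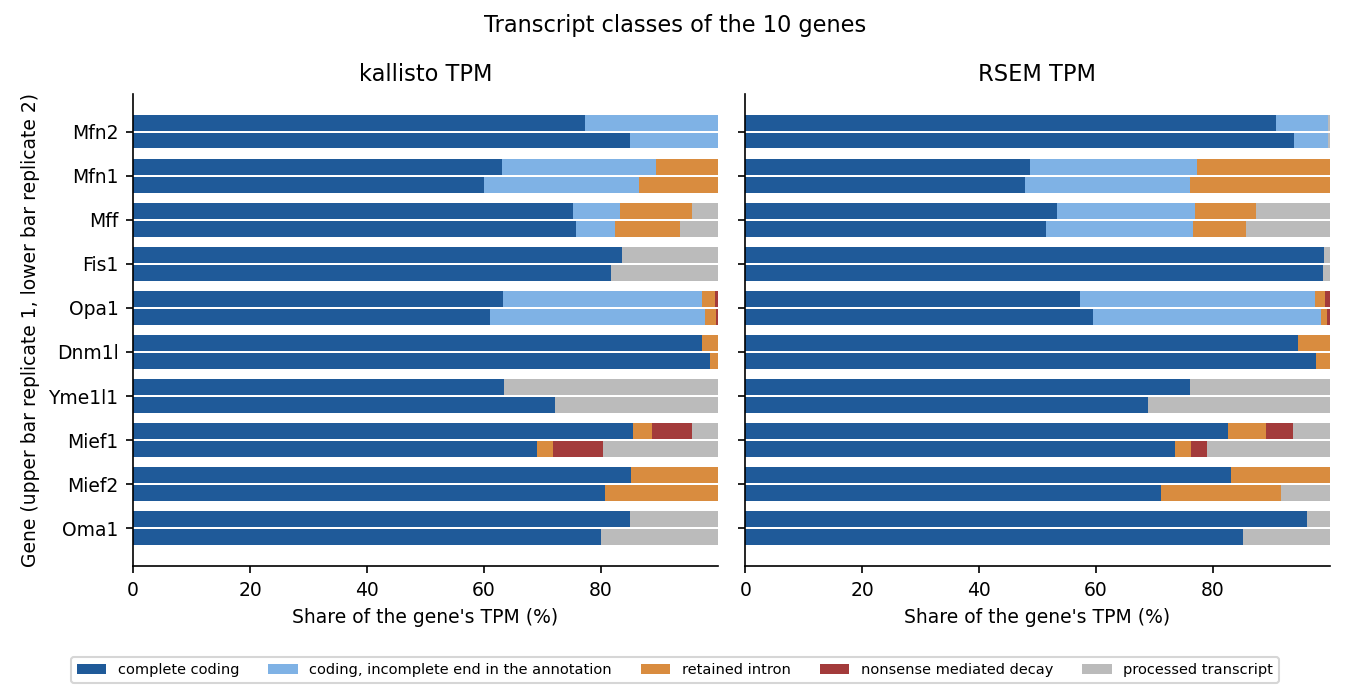
Share of each gene's TPM (x axis, percent) in each class of annotated transcript, by kallisto (left) and RSEM (right), with the upper bar of a pair for replicate 1 and the lower for replicate 2. Complete coding transcripts form most of Mfn2, Fis1 and Dnm1l, incomplete coding ones are a large share of Opa1 and Mfn1, and the 2 methods differ most for Mfn1, Mff and Fis1.

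The leading transcript was the same in both libraries and by both methods for 9 of 10 genes. Mfn1-202 and Mfn1-201 encode the same 741 residues and differ in length, 2789 and 4562 nt. Mfn1-202 led with 46.6% and 43.3% of the Mfn1 TPM by kallisto and 29.4% and 27.7% by RSEM. The incomplete coding fragment Mfn1-204 held 18.9% and 24.8% by kallisto and 15.6% and 19.4% by RSEM. A smaller share lay in Mfn1-206, another such fragment, with 11.7% and 7.38% by RSEM and 6.30% and 0.504% by kallisto.

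For Mfn2, the leading Mfn2-201 held 88.9% and 91.0% by RSEM and 57.2% and 67.3% by kallisto. Mfn2-203 and Mfn2-204 carry the same coding sequence of 757 residues and differ from it outside the coding part. Kallisto gave Mfn2-204 4274 counts in replicate 1 and 1101 in replicate 2, while RSEM gave it 0 in both. For Mfn2-203, kallisto gave 8.60% and 13.9% and RSEM 1.25% and 2.03%. The incomplete Mfn2-207 held 21.4% and 14.6% by kallisto and 6.01% and 5.21% by RSEM. The 757-residue form held between 99.2% and 99.3% of the complete coding TPM in the 4 readings. Of the whole Mfn2 TPM that form held 76.7% and 84.2% by kallisto and 90.1% and 93.1% by RSEM.

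Opa1 was led by Opa1-206, which encodes 960 residues and lacks both alternative exons shown above. It held 50.3% and 47.2% of the Opa1 TPM by kallisto and 55.5% in both libraries by RSEM. The 111 nt exon was included in 35.1% and 37.7% of the TPM by kallisto and 41.2% and 39.6% by RSEM. Inclusion here is the share of the TPM of transcripts that include the exon among those that include or skip it, since the files used hold no reads across splice junctions. That exon is known to carry a Yme1l1 cleavage site of Opa1, so these shares describe RNA with and without the site in this exon. Whether other parts of Opa1 carry such a site was not examined. The 54 nt exon was included in 14.9% and 22.1% by kallisto and 14.9% and 13.4% by RSEM. Opa1-201, which carries the 54 nt exon and encodes 978 residues, held 12.9% and 13.9% by kallisto but 1.78% and 3.94% by RSEM. Opa1-208, an 888 nt fragment with both exons, held 1.59% and 7.74% by kallisto and 12.7% and 9.24% by RSEM. The minority inclusion of both exons held in each reading, while the transcript that carried the 54 nt exon differed between methods.

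Dnm1l and Mff each have 6 complete coding forms in the annotation. The leading Dnm1l-201, which encodes 699 residues and lacks the 39, 78 and 33 nt exons, held 41.6% and 48.6% of the Dnm1l TPM by kallisto and 48.2% and 64.3% by RSEM. Dnm1l-203 carries the 78 and 33 nt exons and held 26.8% and 22.4% by kallisto and 18.0% and 15.7% by RSEM. It encodes 587 residues, fewer than Dnm1l-201 despite these added exons, so its coding sequence also differs elsewhere. Dnm1l-202 carries the 39 nt exon and held 8.12% and 5.73% by kallisto and 13.3% and 6.40% by RSEM. Dnm1l-204 encodes 612 residues, carries the 33 nt exon and skips a 47 nt coding exon. That exon is not shown above, and its length is not a multiple of 3. Dnm1l-204 held 15.01% and 14.9% by kallisto but 4.12% and 0.878% by RSEM.

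The 39 nt exon inserts 13 residues into the GTPase domain of Dnm1l, in a form known from brain. Its inclusion was 8.33% and 5.81% by kallisto and 14.1% and 6.55% by RSEM. The 78 and 33 nt exons encode parts of the variable domain, the stretch between stalk regions that differs between tissues. Inclusion of the 78 nt exon was 27.8% and 22.8% by kallisto and 19.99% and 16.4% by RSEM. Inclusion of the 33 nt exon was 48.5% and 44.7% by kallisto and 31.8% and 26.1% by RSEM. All 3 exons were in the minority in each reading. Each was lower in replicate 2 than in replicate 1 by both methods, which 2 libraries do not allow to be tested. These 3 shares are not separate observations. Dnm1l-203 carries both the 78 and 33 nt exons, and Dnm1l-201, whose share was higher in replicate 2, counts as skipping all 3.

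Mff was the exception among leading transcripts. By kallisto Mff-201 led in replicate 1 with 25.04% of the Mff TPM and Mff-202 in replicate 2 with 28.4%. By RSEM Mff-201 led in replicate 1 with 14.9% and the noncoding Mff-210, of 586 nt, in replicate 2 with 14.3%. Mff-202 encodes 291 residues and carries the 159 and 60 nt exons, whereas Mff-201 encodes 239 residues and carries only the 60 nt exon of the 3 shown. Mff-212, with all 3 exons and 316 residues, held 15.1% and 13.6% by kallisto and 10.9% and 11.0% by RSEM. Mff-208, of 238 residues, held 10.6% and 7.65% by kallisto and 10.1% and 12.9% by RSEM. The 435 nt fragment Mff-204 held 4.43% and 4.14% by kallisto and 11.6% and 14.1% by RSEM. The highest share of any Mff transcript in any reading was 28.4%.

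The Mff exons were included to different degrees. The 60 nt exon was in most transcripts, with 88.4% and 89.2% by kallisto and 77.4% and 73.7% by RSEM. The 159 nt exon stood at 41.6% and 51.6% by kallisto and 32.1% and 35.004% by RSEM. The 75 nt exon stood at 20.4% and 19.4% by kallisto and 14.2% and 15.2% by RSEM. The order of the 3 exons was the same in all 4 readings.

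**Figure D3:**
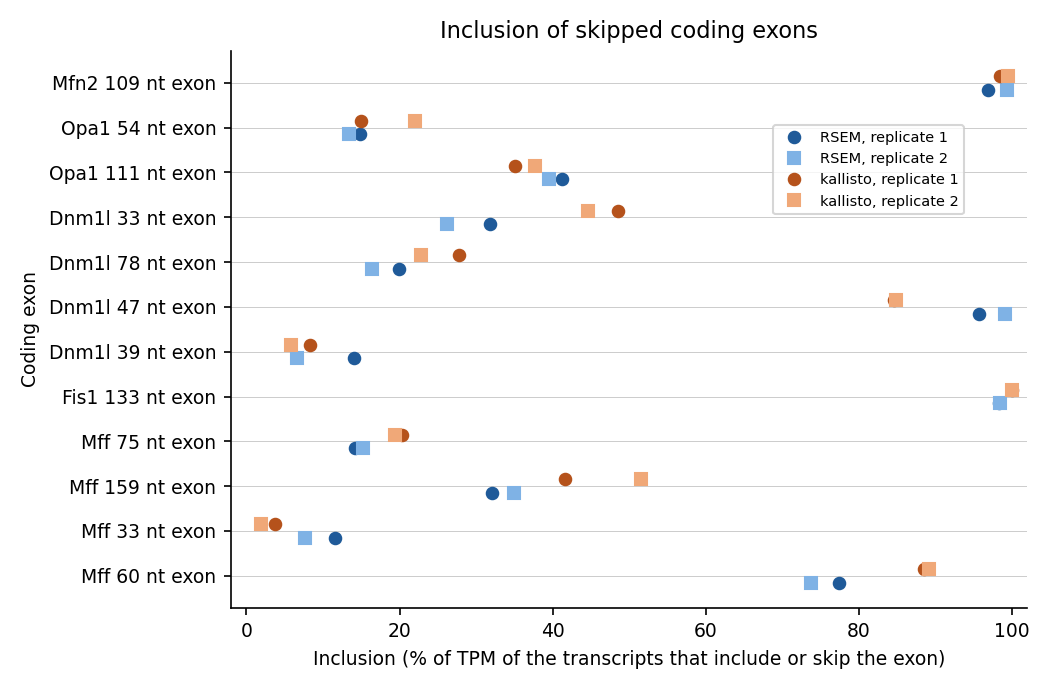
Inclusion of the 12 skipped coding exons of 5 genes (x axis, percent of the TPM of transcripts that include or skip the exon) by RSEM (blue) and kallisto (orange), circles for replicate 1 and squares for replicate 2. The Mfn2 109 nt and Fis1 133 nt exons lie near full inclusion, while the Opa1, Dnm1l and Mff exons spread from 1.89% to 99.1% and the methods lie apart for the Dnm1l 33 nt and Mff 159 nt exons.

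The remaining 5 genes were simpler. Fis1-201, which encodes 152 residues, led with 59.2% and 60.3% by kallisto and 92.6% and 91.5% by RSEM. Fis1-202 (145 residues) held 24.4% and 21.4% by kallisto and 4.67% and 5.84% by RSEM. The processed transcript Fis1-205 held 16.3% and 18.1% by kallisto and 0.269% and 0.172% by RSEM. Mief1-201 led for Mief1, with 64.4% and 53.0% by kallisto and 61.1% and 53.9% by RSEM, and its 3 complete transcripts encode the same 463 residues. Of the other two, Mief1-202 held 17.2% and 15.9% by kallisto and 0.597% and 6.17% by RSEM, and Mief1-205 held 3.78% and 0.0551% by kallisto and 20.99% and 13.5% by RSEM.

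Mief2, Oma1 and Yme1l1 have 1 complete coding transcript each, of 454, 521 and 715 residues. Mief2-201 held 85.1% and 80.8% of the Mief2 TPM by kallisto and 83.1% and 71.2% by RSEM, beside the retained-intron transcript Mief2-203 with 14.9% and 19.2% by kallisto and 16.9% and 20.5% by RSEM. Oma1-201 held 84.9% and 80.0% by kallisto and 96.1% and 85.1% by RSEM. Yme1l1-201 held 63.4% and 72.1% by kallisto and 76.0% and 68.9% by RSEM. The rest of Yme1l1 lay in processed transcripts, which differed by method: Yme1l1-204 held 28.3% and 21.4% by kallisto and 0% and 2.85% by RSEM, and Yme1l1-206 held 18.6% and 24.2% by RSEM and 1.98% and 1.27% by kallisto.

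Gene-level counts were less sensitive to the method than transcripts. The kallisto count was between 0.952 times (Fis1) and 1.15 times (Mief1) the RSEM count. Several members overlap other annotated genes. On the same strand, AC140267.1 overlaps Mief1 over 213 nt and received 31.6 and 7.31 counts by RSEM and 0 by kallisto, and Gm28941 overlaps Mff with 43 and 21 counts. On the opposite strand, C430014B12Rik overlaps Mff with 4 counts in each library and Gm49521 overlaps Dnm1l with 2. The sources used here do not give the strand setting of the counting.

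The 2 hearts were close in these genes. Each gene's counts were set against each other in a two-sided exact binomial test conditional on their sum. A call needed both a ratio of 2-fold or more and an adjusted p under 0.05. With 1 library on each side the test weighs counting error only, not the spread between animals. None of the 10 genes was called, where 1.31% of the 16517 tested genes were, and none was under any other scaling, count table or limit tried. At an unadjusted p under 0.05 there were 5 of 10, against 27.5% of tested genes, and these 5 also passed the adjusted threshold without the fold limit. In the same test 17.6% of all tested genes passed at any fold. Among the 8436 tested genes with at least as many counts as the lowest of the 10 genes, 26.5% passed.

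Mfn1 received 8591 counts in replicate 1 and 9055 in replicate 2, a log2 ratio of 0.12 after TMM scaling with a 95% counting interval from 0.073 to 0.16. Oma1, with 363 and 430 counts, had the widest ratio of the 10 genes at 0.28, or 1.22-fold, with an interval from 0.079 to 0.49. The ratios were 0.09 for Dnm1l (4619 and 4781 counts), 0.06 for Opa1 (7489 and 7604) and 0.03 for Mfn2 (29943 and 29806). Their adjusted p by the exact binomial test was 1.96e-06 for Mfn1, 0.0381 for Oma1, 0.0192 for Dnm1l, 0.0489 for Opa1 and 0.0314 for Mfn2. All 5 were higher in replicate 2 with this scaling.

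The counting intervals of the other 5 genes included 0. Fis1 received 1604 and 1601 counts, Mff 3151 and 3039, Mief1 1788 and 1706, Mief2 647 and 630, and Yme1l1 3213 and 3129. Without regard to sign, the log2 ratio had a median of 0.035 over the 10 genes, 0.12 over all tested genes and 0.080 over those with at least as many counts.

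Small differences of this size depended on the scaling. Scaling to the ERCC spike-ins moved the median log2 ratio of all tested genes from 0.0023 to -0.11. With it, Mfn1 stood at 0.0082 and Oma1 at 0.18, and the other 8 genes were below 0, from -0.018 for Dnm1l to -0.14 for Mief1. No gene of the 10 was then higher at an adjusted p under 0.05, and 4 were lower (Mfn2, Mff, Mief1 and Yme1l1), where 27.9% of all tested genes passed at any fold. Oma1 had the highest ratio of the 10 genes, and both Oma1 and Mfn1 stayed above 0 under each scaling tried. Oma1 also had the fewest counts of the 10 genes, 363 and 430.

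**Figure D4:**
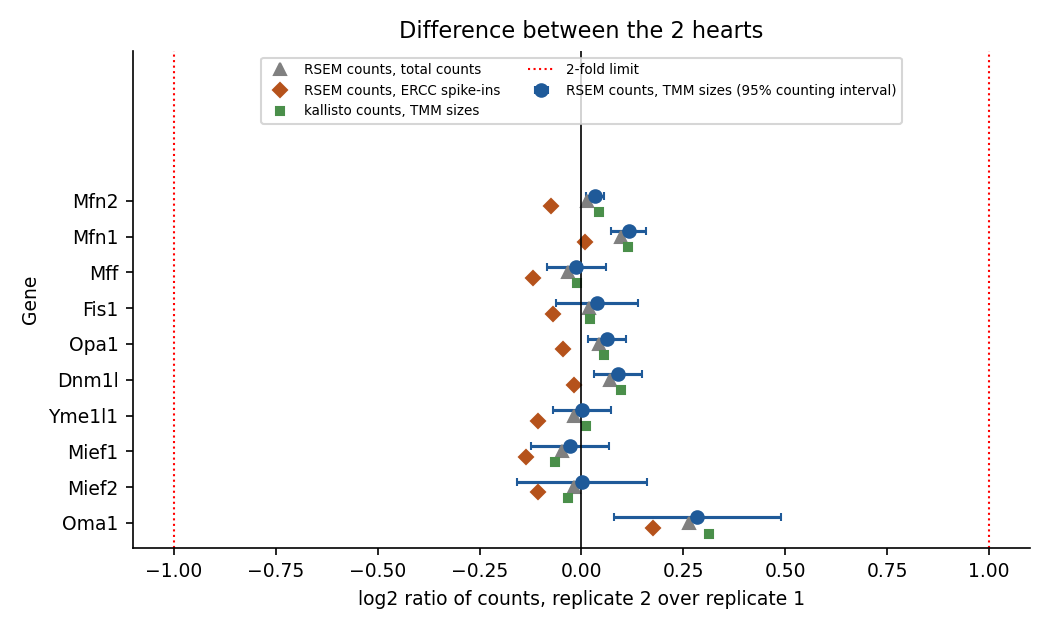
log2 ratio of counts in replicate 2 over replicate 1 (x axis) for each gene, with TMM scaling and its 95% counting interval (blue), total counts (grey), ERCC spike-ins (orange) and kallisto counts (green). All points lie well inside the dotted 2-fold limits, and the ERCC points lie to the left of the others by a like amount for each gene.

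The 2 libraries differed in markers of other cells. For the labelled tissue, 8 of 8 cardiomyocyte markers were detected, and they summed to 35823 and 37933 TPM in replicates 1 and 2. The 6 erythroid markers summed to 5270 and 12989 TPM, and all 6 were called higher in replicate 2. Atrial markers summed to 522 and 966 TPM, with 1 of 6 called. All 6 were higher in replicate 2, from 1.74-fold for Sln to 2.17-fold for Bmp10, so the others fell short of the 2-fold limit. Of 6 adipocyte markers 5 were called lower in replicate 2, with a list median of 7.43 and 1.20 TPM. The list summed to 509 and 487 TPM. Most of that sum was the other marker, Fabp4, at 445 and 476 TPM, which was not called. Fibroblast (1556 and 1595 TPM), endothelial (492 and 476 TPM), mural (468 and 493 TPM) and macrophage markers (42.8 and 51.3 TPM) had no gene called. Of skeletal muscle markers 1 of 6 was detected, with a sum of 93.8 and 150 TPM, and none of 4 lung markers was detected, with a sum of 0.43 and 0.63 TPM. Whether these differences have a part in the ratios of Mfn1, Oma1, Dnm1l, Opa1 and Mfn2 was not tested.

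Other genes of mitochondrial dynamics were read from 5 lists. The files held 66 of the 69 listed symbols, and 64 were detected. None of the 65 tested was called, where 1.31% of all tested genes were. At an unadjusted p under 0.05 there were 25, where 27.5% of all tested genes passed. At any fold 18 passed the adjusted p with TMM scaling, 16 higher and 2 lower in replicate 2, whereas with ERCC scaling 2 were higher and 14 lower. Of all tested genes, 712 were higher and 3901 lower with ERCC scaling, 27.9% in sum. The 18 are 27.7% of the tested list genes, beside 17.6% of all tested genes. Among the 8436 tested genes with at least the summed count of Oma1, 26.5% passed, which is close to the list share. Some list genes have fewer counts than Oma1. The median absolute log2 ratio of the tested list genes was 0.067, beside 0.12 for all tested genes and 0.080 for those 8436.

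The 2 most abundant genes of each list by mean level ranged from below Dnm1l to above Mfn2. Among fusion partners, the prohibitins Phb2 (159 and 155 TPM) and Phb (138 and 148 TPM), scaffolds of the inner membrane that protect long Opa1, stood beside Mfn1. The fusion partners had a list median of 38.4 ± 0.513 TPM (SD, n = 2). Fission partners were lower, with a list median of 12.6 ± 0.552 TPM. Their leading genes by mean level were Mtfr1l (66.5 and 66.0 TPM) and Mtfp1 (32.5 and 38.4 TPM), an inner-membrane protein that promotes division. Mtfp1 was among those past the adjusted p with TMM scaling, with 1317 and 1538 counts and a log2 ratio of 0.26.

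Inner-membrane and matrix proteases had a list median of 30.4 ± 0.301 TPM, close to Yme1l1 and above Oma1. Pmpcb, a subunit of the matrix processing peptidase, stood at 90.3 and 96.1 TPM, and Afg3l2, a subunit of the matrix-facing AAA protease, at 56.8 and 61.4 TPM. Among ubiquitin, SUMO and kinase regulators, with a list median of 23.6 ± 0.856 TPM, the mitophagy kinase Pink1 led at 121 and 130 TPM. Akap1, which anchors protein kinase A at the outer membrane near Dnm1l, followed at 49.4 and 51.2 TPM. The cristae and cardiolipin list had the highest median, 41.2 ± 0.795 TPM. Its leading genes were Chchd10 (467 and 494 TPM) and Chchd2 (380 and 396 TPM), paired proteins of the intermembrane space, and both stood above Mfn2.

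**Figure D5:**
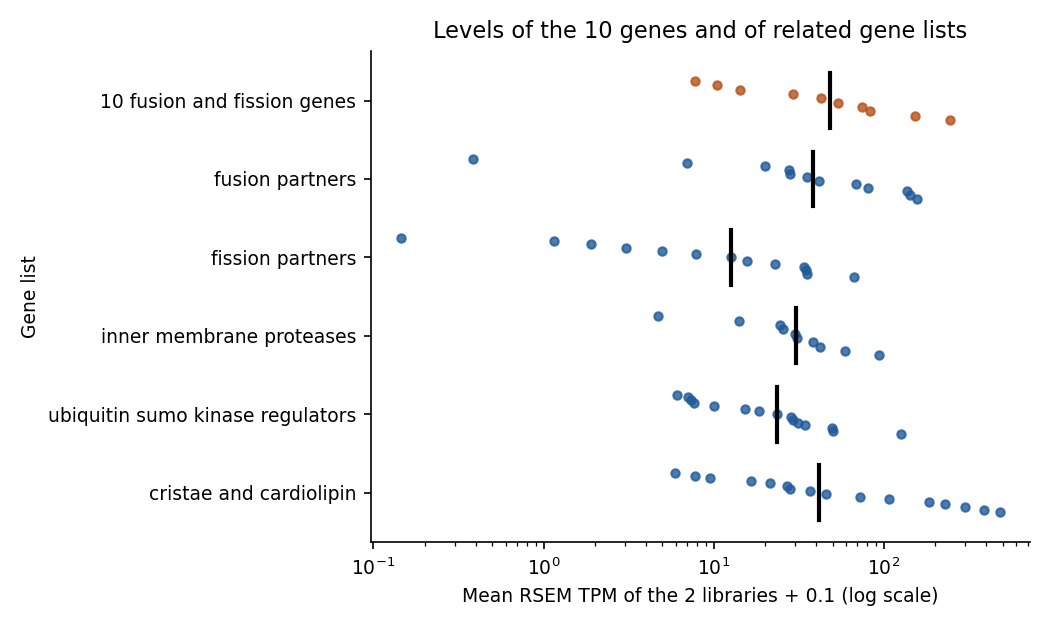
Mean RSEM level over the 2 libraries (x axis, TPM + 0.1 on a log scale) of the 10 genes (orange) and of the genes of 5 related lists (blue), with 1 point per gene and a black line at each list's median. The fission partners have the lowest median of the 5 lists and the cristae and cardiolipin list holds the most abundant genes.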

How the data were processed

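Total RNA was sequenced from 2 hearts, with 1 library each. Per the file headers, the deposited gene tables hold expected counts and TPM, and the deposited transcript tables hold expected counts, TPM and each transcript's percent of its gene's TPM, under the column names RSEM writes. A second transcript table, deposited by the authors under the column names kallisto writes, holds estimated counts and TPM. The assembly is mm10 with GENCODE M21, per the text deposited with the files. Aligner, versions, trimming and strand settings were not given in the sources used here. RSEM took 99 nt off each length and kallisto a fragment of 333 or 329 nt. Kallisto TPM over RSEM TPM was 1.41 for Fis1, 1.31 for Mfn2, 1.30 for Yme1l1 and 0.962 for Mff. The part of the length step in such gaps was not tested. Reads were assigned on the C57BL/6J reference, which could cost reads that differ in CAST/EiJ.

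Expected counts were rounded. Library sizes came from TMM (edgeR 4.0.16 in R 4.3.3). Benjamini-Hochberg adjustment ran over the 16517 annotated genes whose counts summed to 20 or more, and fold ratios used a prior count of 0.5. The quasi-likelihood test of edgeR has no residual degrees of freedom with 1 library a side. The 26248 entries with numeric identifiers, which held 3.84 and 2.92 counts, and the spike-ins (0.541% and 0.575% of counts) entered neither library sizes nor tests. Intervals cover counting error only, since each side holds 1 library. Amplified reads carry no molecular identifiers, so copies of 1 molecule could not be told apart. Pair ratios used TPM + 0.1. Over 13590 genes the biological coefficient of variation between the hearts was 8.97%. The test was checked on simulated counts with known changes and counting error alone, so the check does not cover the spread between animals.

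A transcript was called coding by its deposited biotype and the annotated coding sequence, not by a field of its name as first planned. The members and lists were chosen with earlier results of these data known. Named were the 10 genes, their leading transcripts and those with at least 10% of the gene's TPM in any reading, and the 2 most abundant genes of each related list. The listed symbols Fam73a, Fam73b and Park2 were not matched. Alternatives covered scaling (DESeq2 1.42.0 size factors, totals, spike-ins), kallisto values, thresholds, pseudocounts and leaving out a library. Scripts ran in Python 3.11.15 (pandas 2.3.3, numpy 2.4.6, statsmodels 0.14.6, scipy 1.17.1, matplotlib 3.10.9).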

Additional observations from a re-analysis of the deposited data

How the results depend on the processing

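The count of detected genes (10), of genes called between the hearts (0) and of pairs apart (5) was the same under each alternative that could give it. The median level of the 10 genes was 57.3 TPM by kallisto and 114 TPM when rescaled over nuclear protein-coding genes. Over complete coding transcripts only, an alternative chosen after seeing the data, it was 44.6 TPM by kallisto and 36.3 TPM by RSEM. The coding share was 89.7% by RSEM TPM and 97.8% of estimated counts. At any fold, 2 of the 10 genes passed the adjusted p with DESeq2 size factors, 1 with total counts, 3 with no minimum count and 4, all lower in replicate 2, with ERCC scaling. ERCC scaling turned the log2 count ratio of Mfn2 to -0.074, Opa1 to -0.046, Dnm1l to -0.018, Fis1 to -0.070, Mief2 to -0.11 and Yme1l1 to -0.11. Mief2 turned to -0.013 with DESeq2 size factors, -0.018 with total counts and -0.032 by kallisto, and Yme1l1 to -0.013 with DESeq2 size factors and -0.018 with total counts. The log2 ratio of Mff to Fis1 turned to -0.39 by kallisto TPM, and over complete coding transcripts to -0.53 by kallisto and -0.77 by RSEM. That of Dnm1l to Opa1 turned to 0.28 by kallisto and 0.38 by RSEM over complete coding transcripts. The cause of these changes was not tested.

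With a single library, 10 genes were detected, the median level ranged from 47.9 to 48.8 TPM, the leading transcripts shared by both methods from 9 to 10, and the coding share from 90.8% to 91.8%. Leaving out a library leaves no SD for the pairs and no call between hearts, so these were not run. No paired analysis was possible because there is 1 group. Depth limits Oma1 most, with 363 and 430 counts.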
